A study of Homo sapiens with 6 samples.

Results

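A list of 47 genes for lysosomal enzymes, lysosomal membrane proteins, subunits of the lysosomal proton pump, sorting factors and the transcription factors TFEB and TFE3 was followed in RNA-seq libraries of TC71, a Ewing sarcoma cell line. The genes were picked by symbol out of the 60676 genes in the count table, by a rule that names no measured value but was made with earlier results of these libraries known, and all 47 symbols were found. The series compares cells in which the endocytic recycling gene EHD1 was knocked down with control cells. TC71 cells carried a lentiviral, doxycycline (Dox)-inducible shRNA, either a non-targeting control (shNTC) or an shRNA against EHD1 (shEHD1). Dox was given to both groups at 0.5 µg/ml for 3 days, and each group (shNTC+Dox and shEHD1+Dox) had 3 libraries. Which EHD1 shRNA these libraries carried is not given in the sources used here, and no Dox-free cells were analysed here. Nothing in the labels says that the 3 libraries of a group came from separate cultures, so the p-values measure only the spread between these libraries, which may be technical.

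Lysosomes are acidic, membrane-bound compartments in which cells break down material delivered by endocytosis, autophagy and the secretory route. Soluble hydrolases are made in the endoplasmic reticulum, tagged with mannose 6-phosphate in the Golgi and carried to lysosomes by sorting receptors, and a vacuolar-type proton pump (V-ATPase) acidifies the lumen so that they can work. TFEB and TFE3 are transcription factors that bind a short DNA word, the CLEAR element, in the promoters of many of these genes. EHD1 is an ATPase of the endosomal system that helps to return internalised receptors to the cell surface.

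Total counts ran from 22711235 to 28203023 per shNTC+Dox library and from 24150135 to 30582187 per shEHD1+Dox library. Levels are given as CPM, that is counts scaled to the size of each library after TMM normalization. EHD1 was at 27.1, 28.0 and 26.4 CPM in shNTC+Dox and at 7.55, 7.15 and 9.37 CPM in shEHD1+Dox, a log2 fold change of -1.76 (SE, the standard error, 0.12, adjusted p = 1.35e-04 by the quasi-likelihood test of edgeR) that left 29.6% of the transcript. The mitochondrial genome took 3.57 to 4.04% of the counts in shNTC+Dox and 1.94 to 2.71% in shEHD1+Dox, so the groups differed in this share without overlap, and its part in the results below was not tested. A list of 8 Ewing sarcoma markers summed to 1270 to 1330 CPM in shNTC+Dox and 1290 to 1400 CPM in shEHD1+Dox, with none of them at 0 in all libraries. PRKCB was the largest part of this sum, CD99 rose (0.33 on the log2 scale), STEAP1 and BCL11B fell (-0.43 and -0.75), and CCK had 11, 5 and 12 counts in shNTC+Dox and 0 in each shEHD1+Dox library. Macrophage markers, which matter here since macrophages are rich in lysosomes, summed over 6 genes to 3.61 to 6.61 CPM and 2.94 to 5.41 CPM, with CD163 at 0 in every library. The 3 endothelial markers summed to 0 CPM and to at most 0.105 CPM, the 5 fibroblast markers to 86.1 to 142 and 114 to 138 CPM, and the 4 epithelial markers to 27.2 to 31.5 and 34.1 to 40.2 CPM, in shNTC+Dox and shEHD1+Dox respectively. PDGFRB made up most of the fibroblast sum, in which DCN fell by 1.01 on the log2 scale (adjusted p = 0.00778). In such bulk libraries, a change in the share of cells that express a gene and a change in its RNA per cell cannot be told apart.

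Of the 47 lysosomal genes, 46 had enough counts to be tested. In shEHD1+Dox cells 20 of them rose, 2 fell and 24 did not pass the test, where a call means an adjusted p-value under 0.05 from edgeR's quasi-likelihood test over all 16785 genes tested. Among the proteases, glycosidases, sulfatases and lipid-handling proteins, 18 of 27 tested genes rose and 1 fell, and the other 2 rises were those of the membrane protein SCARB2 and the Golgi enzyme GNPTAB. None of the 6 proton pump subunits passed. Only OSTM1, a small membrane protein that partners a chloride transporter, changed by at least 2-fold, and it fell to 36% of its control level.
Across all genes tested, 17.3% passed, 8.59% upward and 8.75% downward, against 43.5% of the tested lysosomal genes upward and 4.35% downward. The median log2 fold change was 0.27 over the 46 genes and 0.0008 over all genes tested, and 36 of the 46 values were positive. The 3 libraries of one group lay wholly above those of the other for 33 of the 46 genes, with shEHD1+Dox above for 28 and below for 5. The same held for 39.3% of all genes tested, 19.9% with shEHD1+Dox above and 19.4% below. The changes were small. Log2 fold changes of the 20 genes that rose ran from 0.26 to 0.90, and 2.82% of all genes tested passed at 2-fold or more, 1.08% upward and 1.74% downward. Summed over the list, the level was 3128, 3231 and 3111 CPM in shNTC+Dox and 3820, 3788 and 3881 CPM in shEHD1+Dox. Without PSAP, the gene with the most counts of the list, the sums were 2742, 2831 and 2695 against 3204, 3183 and 3233 CPM.
The number of calls moved with single libraries. It was 22 with all 6 libraries, 14 without shNTC+Dox replicate 1, 14 also without replicate 1 of shEHD1+Dox and 12 without its replicate 3, while 25 passed without shNTC+Dox replicate 3. Calls over all genes tested moved alike, from 2910 with all libraries to 1713, 1341 and 1322 in the first 3 of these fits and to 3616 in the last. Of the controls, replicate 3 was the lowest for GAA, LIPA, SCARB2 and SORT1 and the highest for LAMP1 and CLCN7. The 12 genes CTSD, CTSF, CTSH, CTSL, TPP1, HEXA, GLA, GLB1, MANBA, NAGLU, PSAP and OSTM1 passed whichever library was left out. With the counts of genes on shared exon bases summed, 20 of the 22 calls remained and that of IDS did not. The sum for GLA holds mostly counts of another gene and is no test of GLA.

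**Figure D1:**
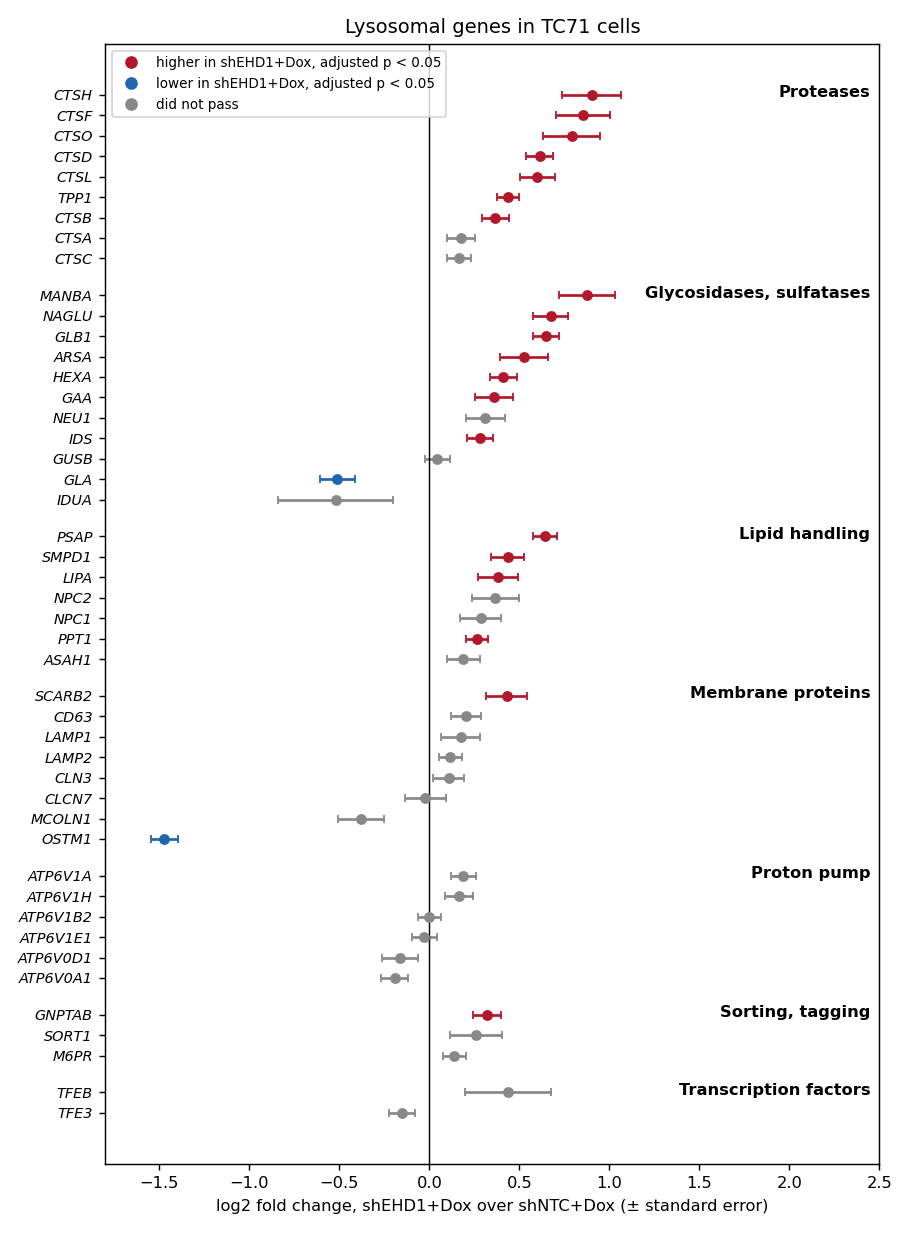
Log2 fold change (shEHD1+Dox over shNTC+Dox, n = 3 each, horizontal axis) of the 46 lysosomal genes tested, grouped by role, with bars for the standard error and colours for the call of edgeR's quasi-likelihood test. Most enzyme genes lie to the right of 0 up to 0.90 (CTSH), the 6 proton pump subunits lie between -0.19 and 0.19, and OSTM1 stands alone at -1.47.

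Proteases showed the highest share of calls, with 7 of 9 tested genes higher (77.8%, against 8.59% of all genes) and a median log2 fold change of 0.60. They comprise the cathepsins and TPP1, which cut proteins taken into the lysosome. CTSD, the main aspartic protease of the lysosome, stood at 73.5, 81.6 and 84.5 CPM in the shNTC+Dox libraries and at 117, 125 and 125 CPM in the shEHD1+Dox libraries. The groups were apart, and the log2 fold change was 0.61 (SE 0.07, adjusted p = 0.00127). CTSD shares 48.0% of its exon bases with other genes. Together these had 105 counts in shNTC+Dox and 395 in shEHD1+Dox, against 6081 and 10242 for CTSD. With their counts added the log2 fold change was 0.64 (adjusted p = 0.00116). CTSL, a cysteine endopeptidase, was at 19.5, 16.5 and 17.6 CPM in shNTC+Dox and rose to 28.3, 25.8 and 27.1 CPM. That is a log2 fold change of 0.60 (SE 0.10, adjusted p = 0.00454). CTSB, a cysteine protease with both endo- and exopeptidase activity, measured 60.9, 64.0 and 59.6 CPM in shNTC+Dox and 82.7, 72.9 and 82.3 CPM in shEHD1+Dox, without overlap. The rise was 0.37 on the log2 scale (SE 0.08, adjusted p = 0.0128). The call was lost without shEHD1+Dox replicate 1 (adjusted p = 0.0646) or replicate 3 (adjusted p = 0.0589).
Among the called cysteine cathepsins of the list, those with few counts rose by more. With few counts only a large change can be called. Outside the list, CTSK (-0.827) and CTSV (0.405), also with few counts, did not pass. CTSH, an aminopeptidase with the largest rise of the list, had 5.85, 6.68 and 4.93 CPM in control cells and 10.2, 9.81 and 12.6 CPM after EHD1 knockdown, a log2 fold change of 0.90 (SE 0.17, adjusted p = 0.00767). CTSF had 5.59, 5.09 and 6.72 CPM in shNTC+Dox and 11.3, 9.97 and 10.1 CPM in shEHD1+Dox. Every shEHD1+Dox library was above every control library for both genes, and the log2 fold change of CTSF was 0.85 (SE 0.15, adjusted p = 0.0064). CTSO went from 5.21, 6.54 and 7.30 CPM to 11.3, 9.93 and 11.6 CPM, a log2 fold change of 0.79 (SE 0.16, adjusted p = 0.011), and missed the threshold without shEHD1+Dox replicate 3 (adjusted p = 0.0537). TPP1, a tripeptidyl peptidase mutated in a form of neuronal ceroid lipofuscinosis, was at 90.9, 97.0 and 94.3 CPM in shNTC+Dox and 129, 129.7 and 124 CPM in shEHD1+Dox. The spread within groups was small, and the log2 fold change of 0.44 had an SE of 0.06 (adjusted p = 0.00264). CTSA, which also protects GLB1 and NEU1 in a complex, and CTSC, a dipeptidyl peptidase, did not pass (log2 fold changes 0.18 and 0.16, adjusted p = 0.154 and 0.124), although their groups did not overlap. Without shNTC+Dox replicate 3 CTSA passed (0.25, adjusted p = 0.017). CTSA shares 21.5% of its exon bases with other genes, among them PLTP, which together had more counts than CTSA (6676 against 5757 in shNTC+Dox). With the counts of these genes added it was at 0.29 (adjusted p = 0.012), but that sum holds mostly their counts and is no test of CTSA. CTSZ, with 7, 10 and 8 counts against 13, 0 and 1, was under the count minimum.

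Among the glycosidases and sulfatases, which take sugars and sulfate groups off glycans and glycolipids, 7 of 11 rose, 1 fell and 3 did not pass, with a median log2 fold change of 0.36. The shares were 63.6% higher and 9.09% lower, against 8.59% and 8.75% of all genes, so that of the fall was near the background. GLB1, the lysosomal beta-galactosidase whose activity is the common stain for senescent cells, had the narrowest control spread, with 34.7, 35.4 and 35.6 CPM in shNTC+Dox against 55.5, 51.5 and 58.6 CPM in shEHD1+Dox. The change was 0.65 on the log2 scale (SE 0.07, adjusted p = 0.001). MANBA, the beta-mannosidase, was at 17.2, 20.6 and 13.1 CPM in shNTC+Dox and at 34.1, 28.6 and 30.8 CPM in shEHD1+Dox. It had the largest rise of the sugar enzymes, 0.88 (SE 0.16, adjusted p = 0.00684), and exceeded 2-fold without shNTC+Dox replicate 2, as did CTSH. NAGLU, which cleaves N-acetylglucosamine from heparan sulfate, was at 13.4, 12.5 and 13.5 CPM in control cells and at 21.6, 20.4 and 20.8 CPM after knockdown. This gave a log2 fold change of 0.67 (SE 0.10, adjusted p = 0.00253). HEXA, the alpha subunit of the hexosaminidase lost in Tay-Sachs disease, measured 58.9, 61.1 and 54.1 CPM and then 81.6, 73.5 and 76.2 CPM, again with no overlap (log2 fold change 0.41, SE 0.08, adjusted p = 0.00818).
The calls of GAA, IDS and ARSA were lost in most fits that left out a library. GAA, the acid alpha-glucosidase that degrades glycogen, had 79.5, 81.9 and 62.5 CPM in shNTC+Dox and 96.6, 90.5 and 100.1 CPM in shEHD1+Dox. A log2 fold change of 0.36 (SE 0.10, adjusted p = 0.0457) was found, and it passed only in the fits without shNTC+Dox replicate 2 or 3, with adjusted p up to 0.151 in the other 4. IDS, the iduronate sulfatase, had 71.9, 65.3 and 67.2 CPM in shNTC+Dox and 79.0, 87.7 and 81.3 CPM in shEHD1+Dox. The resulting value of 0.28 (SE 0.07, adjusted p = 0.032) passed in 1 of the 6 fits, that without shNTC+Dox replicate 3. IDS shares 75.9% of its exon bases with other genes, and with their counts added it was at 0.23 (adjusted p = 0.0559). ARSA, the arylsulfatase that acts on sulfatide, had 6.19, 7.19 and 7.43 CPM against 10.4, 10.1 and 9.47 CPM. Its groups were apart, but its call (log2 fold change 0.53, SE 0.13, adjusted p = 0.0279) also held in just that fit, with adjusted p up to 0.103 elsewhere.
GLA, the alpha-galactosidase A lost in Fabry disease, was the sole enzyme gene to fall. It was at 30.4, 28.9 and 32.8 CPM in the shNTC+Dox libraries and at 19.7, 23.5 and 21.3 CPM in the shEHD1+Dox libraries, with every knockdown library below every control. The log2 fold change was -0.51 (SE 0.10, adjusted p = 0.00873), opposite in sign to those of the other 7 sugar enzymes called. GLA shares 8.99% of its exon bases with RPL36A, a ribosomal protein gene with 42722 counts in shNTC+Dox and 45329 in shEHD1+Dox against 2331 and 1795 for GLA itself, and how reads common to both were counted is not given in the sources used here. GUSB (beta-glucuronidase), IDUA (alpha-iduronidase) and NEU1 (a sialidase) did not pass, at 0.04, -0.52 and 0.31, and the SE of IDUA, with few counts, was 0.32.

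Of the 7 genes for lipid handling 4 rose (57.1%, against 8.59% of all genes), none fell and all 7 had positive values, with a median log2 fold change of 0.37. PSAP encodes prosaposin, the precursor of the saposins that present sphingolipids to their hydrolases, and had the highest level of the list on every scale used. It was at 386, 399 and 415 CPM in shNTC+Dox and at 617, 605 and 649 CPM in shEHD1+Dox. This rise from 400.0 ± 14.8 to 624 ± 22.5 CPM (SD, n = 3 each) was a log2 fold change of 0.64 (SE 0.07), with the lowest adjusted p of the genes that rose (5.97e-04). SMPD1, the acid sphingomyelinase, was at 15.1, 15.3 and 16.5 CPM in shNTC+Dox and 20.2, 21.8 and 21.4 CPM in shEHD1+Dox. It rose by 0.43 (SE 0.09, adjusted p = 0.0156), and it missed the threshold without shNTC+Dox replicate 1, shNTC+Dox replicate 2 or shEHD1+Dox replicate 3 (adjusted p = 0.0603, 0.051 and 0.0667). PPT1, which removes palmitate from proteins, had 225, 225 and 238 CPM in control cells and 268, 279 and 278 CPM in knockdown cells. The step was small but the libraries of a group were close, at 0.26 (SE 0.06, adjusted p = 0.0201), and the call held in the fits without shNTC+Dox replicate 3 or shEHD1+Dox replicate 2, with adjusted p up to 0.0823 in the other 4.
LIPA, the acid lipase for cholesteryl esters, had 86.6, 90.0 and 65.3 CPM in shNTC+Dox, of which replicate 3 was the lowest, and 103, 103 and 108 CPM in shEHD1+Dox. The rise of 0.38 in log2 (SE 0.11) just passed at an adjusted p of 0.0497. It passed without shNTC+Dox replicate 2 or 3 and had an adjusted p up to 0.15 in the other 4 fits. LIPA shares 6.01% of its exon bases with IFIT2, IFIT3 and another gene. Together these had 1106 counts in shNTC+Dox and 2062 in shEHD1+Dox, against 6228 and 8829 for LIPA. With their counts added the log2 fold change was 0.45 (adjusted p = 0.0182). NPC1 and NPC2, which together export cholesterol from the lysosome, and ASAH1, the acid ceramidase, did not pass, with log2 fold changes of 0.28, 0.37 and 0.19 and adjusted p of 0.118, 0.0891 and 0.198. The summed level of the 28 enzyme and lipid-handling genes was 1629, 1684 and 1639 CPM in shNTC+Dox and 2197, 2179 and 2253 CPM in shEHD1+Dox.

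**Figure D2:**
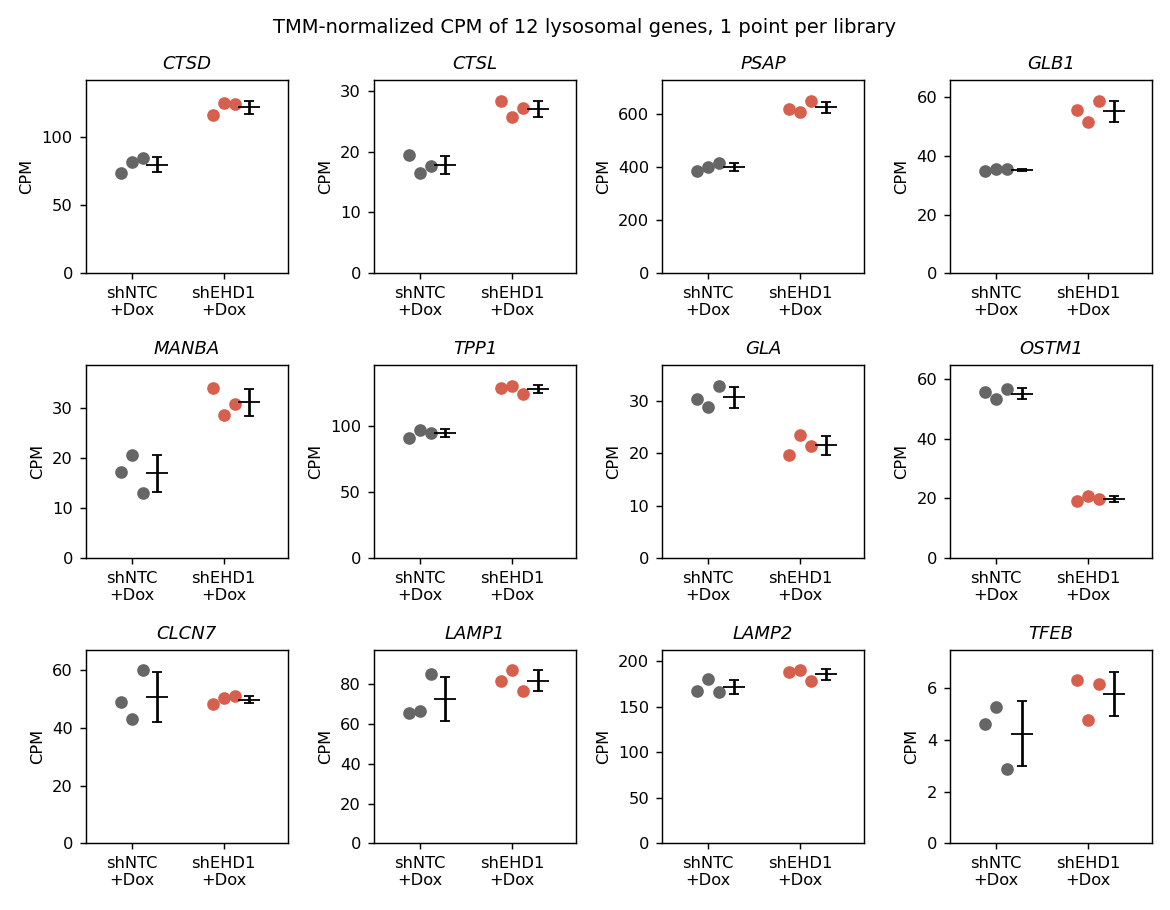
TMM-normalized CPM (vertical axes, each from 0) of 12 lysosomal genes in each of the 3 shNTC+Dox and 3 shEHD1+Dox libraries, 1 point per library, with the group mean and SD as a black bar beside the points. The groups are apart for CTSD, CTSL, PSAP, GLB1, MANBA and TPP1 (shEHD1+Dox higher) and for GLA and OSTM1 (shEHD1+Dox lower), and overlap for CLCN7, LAMP1, LAMP2 and TFEB.

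OSTM1 had the largest and firmest change of the list. OSTM1 (ENSG00000081087, chr6:108029245-108165854 in GRCh38, minus strand) is the partner that CLCN7, the chloride/proton exchanger of the lysosomal membrane, needs to be stable, and loss of either causes osteopetrosis. Its counts were 1460, 1469 and 1264 in shNTC+Dox against 542, 508 and 608 in shEHD1+Dox, and its levels 55.5, 53.1 and 56.6 CPM and then 19.0, 20.8 and 19.6 CPM. The groups were far apart and their spread was small. The log2 fold change was -1.47 (SE 0.08, adjusted p = 2.82e-05), between -1.51 and -1.44 when any library was left out, and its exons overlap those of no other gene. CLCN7 itself was at 49.0, 42.9 and 59.9 CPM in shNTC+Dox and at 48.3, 50.2 and 50.9 CPM in shEHD1+Dox. The groups overlapped, and its log2 fold change was -0.02 (SE 0.11, adjusted p = 0.91). Without shNTC+Dox replicate 3, its highest library, the value was 0.11. In control cells CLCN7 was at 6.08 and OSTM1 at 4.07 CPM per kb of exon, and OSTM1 was at 1.46 CPM per kb in shEHD1+Dox. The lengths join all annotated exons of a gene (8331 bases for CLCN7, 13527 for OSTM1). They need not be those of the mRNA made, so the values do not give the ratio of one transcript to the other.

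The other 6 membrane proteins gave 1 rise and no fall. SCARB2 (LIMP-2), a heavily glycosylated membrane protein that carries glucocerebrosidase to lysosomes, was at 163, 172 and 124 CPM in shNTC+Dox and at 205, 207 and 206 CPM in shEHD1+Dox. The groups did not overlap (log2 fold change 0.43, SE 0.11, adjusted p = 0.0329), but the call was lost without shNTC+Dox replicate 1 (adjusted p = 0.0563) or without any one of the shEHD1+Dox libraries (adjusted p up to 0.0988). LAMP1 and LAMP2 are the most abundant proteins of the lysosomal membrane and the usual markers of the organelle. LAMP1 was at 65.6, 66.7 and 85.4 CPM in shNTC+Dox and at 81.7, 87.1 and 76.7 CPM in shEHD1+Dox, so shNTC+Dox replicate 3 lay among the knockdown libraries. The log2 value was 0.17 (SE 0.11, adjusted p = 0.31), and without shNTC+Dox replicate 3 it was 0.30 and passed (adjusted p = 0.0123). LAMP2 was at 167, 180.2 and 166 CPM in shNTC+Dox and at 188, 190.1 and 179 CPM in shEHD1+Dox, an overlap of 1 library per group (log2 fold change 0.12, SE 0.07, adjusted p = 0.251). CD63, a tetraspanin of late endosomes, and CLN3, a membrane protein mutated in juvenile neuronal ceroid lipofuscinosis, did not pass either (0.20 and 0.11). MCOLN1, the calcium release channel of the lysosome, was at 10.3, 10.2 and 12.4 CPM in control cells and at 8.22, 8.34 and 8.69 CPM in knockdown cells. Its groups were apart, yet the log2 fold change of -0.38 did not pass (SE 0.13, adjusted p = 0.0742). MCOLN1 shares 4.42% of its exon bases with PNPLA6 and another gene, which together had 4112 counts in shNTC+Dox against 831 for MCOLN1.

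The 6 proton pump subunits lay close to 0. They belong to the membrane sector (ATP6V0A1, ATP6V0D1) and to the peripheral sector that hydrolyses ATP (ATP6V1A, ATP6V1B2, ATP6V1E1, ATP6V1H) of the V-ATPase. Log2 fold changes were -0.19 and -0.16 for the membrane sector and 0.19, 0.00, -0.03 and 0.16 for the peripheral sector, with a median of -0.015 and no adjusted p under 0.0955. ATP6V0A1 passed in one fit, without shNTC+Dox replicate 3 (-0.23, adjusted p = 0.0367). Their summed level was 461, 476 and 463 CPM in shNTC+Dox and 470, 478 and 480 CPM in shEHD1+Dox, so the groups overlapped.

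Of the 3 sorting genes, GNPTAB, the phosphotransferase that starts the mannose 6-phosphate tag, rose from 79.6, 86.5 and 74.8 CPM to 98.0, 106 and 96.7 CPM. The rise in log2 was 0.32 (SE 0.08, adjusted p = 0.0235), and it passed only in the fits without shNTC+Dox replicate 2 or 3, with adjusted p up to 0.0762 in the others. M6PR, the small mannose 6-phosphate receptor, and SORT1, sortilin, did not pass at 0.14 and 0.26. Neither transcription factor passed. TFEB, with few counts, was at 4.60, 5.27 and 2.87 CPM in shNTC+Dox and at 6.32, 4.78 and 6.17 CPM in shEHD1+Dox, which overlapped (log2 fold change 0.44, SE 0.24, adjusted p = 0.245). TFE3 was at 67.7, 72.2 and 75.7 CPM and at 66.8, 64.1 and 63.2 CPM. Each shEHD1+Dox library was below each shNTC+Dox library, but the log2 fold change of -0.15 did not pass (SE 0.07, adjusted p = 0.175). These are transcript levels, and TFEB and TFE3 are known to be controlled largely by phosphorylation and entry into the nucleus, which were not measured here.

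Levels were also scaled by length, using all annotated exons of a gene joined. This length can exceed that of the mRNA made, so the order of genes depends in part on annotation. In CPM per kb of exon, levels in control cells ran over more than 2 orders of magnitude. PSAP was at 128 in shNTC+Dox and 200.2 in shEHD1+Dox, followed by CD63 (88.1 and 101) and PPT1 (68.0 and 81.6). The lowest levels of tested genes were those of CTSH (0.423 and 0.791), TFEB (0.632 and 0.857), IDUA (0.658 and 0.457) and CTSO (0.803 and 1.39). CTSH has 13757 such exon bases, and in plain CPM its shNTC+Dox mean of 5.82 was above those of TFEB (4.25) and IDUA (2.67). Genes that rose were found from one end of the range in CPM per kb to the other.

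**Figure D3:**
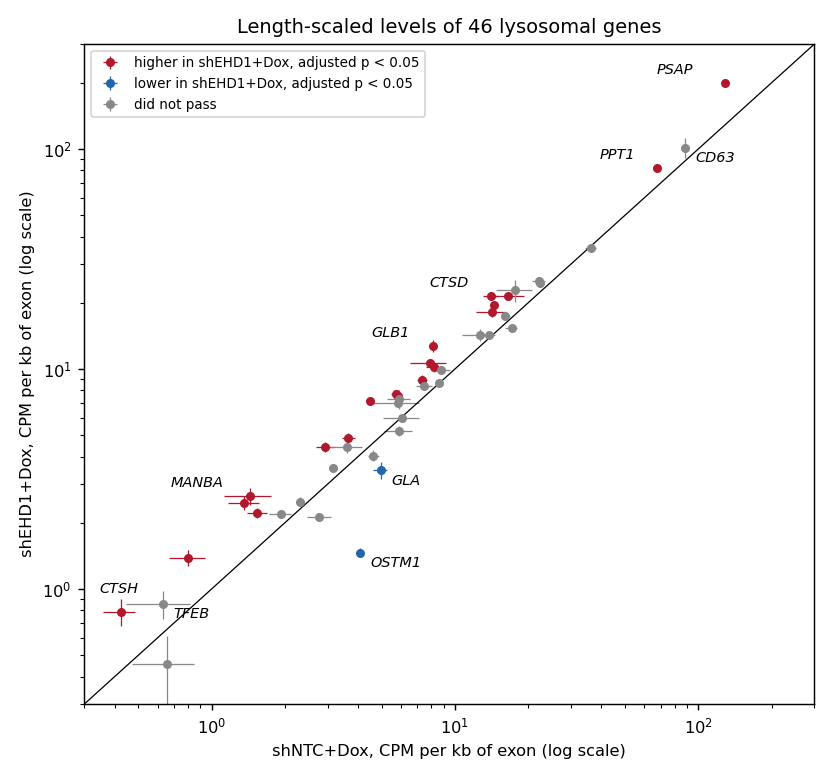
Mean level of each of the 46 lysosomal genes tested, in CPM per kb of exon on log axes, in shNTC+Dox (horizontal) and shEHD1+Dox (vertical), with SD bars (n = 3) and a line of equal level. Genes that rose lie above the line from CTSH (0.423 in shNTC+Dox) to PSAP (128), and OSTM1 and GLA lie below it.

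Promoter sequences of 35 of the 47 genes were found in RefSeq (GRCh38.p14, from 250 bases before to 50 bases after the gene start) and searched on both strands for the E-box CACGTG and for 2 longer palindromic forms of the CLEAR element, TCACGTGA and a 10-base form that adds a base to either end of it, so that each contains the shorter ones. CACGTG stood in 12 of the 35 promoters (34.3%), against 12.6% of the 10981 tested genes with a promoter entry. TCACGTGA was in 6 (17.1% against 2.21%) and the 10-base form in 2 (5.71% against 0.883%). Since the CLEAR element is known from promoters of many of these genes, these higher shares are no result of these libraries. By call, CACGTG was in 3 of 13 promoters of genes that rose, in 9 of 19 of those that did not pass and in 0 of 2 of those that fell. In the same order, TCACGTGA was in 1 of 13, 5 of 19 and 0 of 2, and the 10-base form in 1, 1 and 0. ARSA, ASAH1, ATP6V1A, ATP6V1B2, ATP6V1H, CTSB, CTSO, HEXA, LAMP2, MANBA, NAGLU and PSAP had no entry. The windows of the 3 genes that rose and of LAMP1 are shown to set the word beside the change of each gene, with its letters in capitals. Windows of the other genes with the word, none of which passed, are not shown. The word is 78 bases upstream of the start in GAA (chr17:80101493-80101522, plus strand), 47 in CTSD (chr11:1763959-1763984, minus), 123 in CTSF (chr11:66568714-66568739, minus) and 29 in LAMP1 (chr13:113297200-113297227, plus).
GAA: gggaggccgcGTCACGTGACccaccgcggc
CTSD: cggccgcgccCACGTGaccggtccgg
CTSF: atataacaagCACGTGatagaggtca
LAMP1: acccgcgggaTCACGTGAcgcccgggcg
GAA, with the longest form, had a log2 fold change of 0.36, while MCOLN1, the other gene with that form, was at -0.38 and did not pass. CTSD and CTSF, with the 6-base core, had 0.61 and 0.85. LAMP1, with the 8-base form, did not pass at 0.17, and neither did ATP6V0D1, CLN3 and CTSA, with the same form. A match of letters is a description of these windows and says nothing of binding in these cells.

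The rest of the lysosomal pathway was followed through 97 further genes in 5 lists, of which 92 were tested, 13 rose, 10 fell and 69 did not pass, with a median log2 fold change of 0.08. These shares, 14.1% higher and 10.9% lower, stand beside 8.59% and 8.75% of all genes tested, so that of the falls was near the background. Other hydrolases again held rises and no fall, with 8 of 27 higher (29.6%). GM2A, an activator protein that lifts a ganglioside out of the membrane for its breakdown, rose from 37.5 ± 4.61 to 55.7 ± 1.18 CPM (0.57, SE 0.09, adjusted p = 0.00508). CTSS, a cathepsin of antigen-presenting cells, had 10, 20 and 11 counts in shNTC+Dox against 57, 34 and 46 in shEHD1+Dox. The rise of 1.60 in log2 (SE 0.34, adjusted p = 0.0146) missed the threshold without shNTC+Dox replicate 1 (adjusted p = 0.0503) or shEHD1+Dox replicate 1 (adjusted p = 0.0635).
Outside the hydrolases, called genes with the largest changes had fallen, while ATP6V1C2 at 1.73 (adjusted p = 0.243) did not pass. The lists are short, and their counts are given as a description. Among 21 other membrane proteins 2 rose and 2 fell (9.52% each), with MFSD8, a transporter mutated in neuronal ceroid lipofuscinosis, at -0.56 (SE 0.09, adjusted p = 0.00384), ENTPD4, a nucleotidase of lysosomes and Golgi, at -0.50 (SE 0.08, adjusted p = 0.00395) and LITAF at 0.41 (SE 0.09, adjusted p = 0.0139). LITAF, a late endosomal membrane protein, lost its call without shEHD1+Dox replicate 3 (adjusted p = 0.0626). Of all 22 V-ATPase subunits and accessory proteins tested in both lists, 1 rose and 3 fell (4.55% and 13.6%). ATP6V0A2, an isoform of the membrane sector, fell from 52.2 ± 1.72 to 38.8 ± 3.17 CPM (-0.43, SE 0.08, adjusted p = 0.0086). ATP6V1G1 fell from 99.4 ± 3.02 to 80.5 ± 3.33 CPM (-0.30, SE 0.07, adjusted p = 0.0154), with adjusted p up to 0.0613 in the 3 fits, without shNTC+Dox replicate 1, shEHD1+Dox replicate 1 or shEHD1+Dox replicate 3, in which it did not pass. ATP6V1B1 had at most 40 counts per library and shares 63.1% of its exon bases, and its value of -1.78 (SE 0.53, adjusted p = 0.0493) passed only in the fits without shNTC+Dox replicate 2 or shEHD1+Dox replicate 2.
In the sorting list of 14 genes 1 rose and 3 fell (7.14% and 21.4%). AP1G1, a subunit of the adaptor that loads mannose 6-phosphate receptors at the Golgi, fell from 138 ± 7.64 to 78.9 ± 2.46 CPM (-0.81, SE 0.07, adjusted p = 2.67e-04). GGA2, another adaptor of these receptors, fell from 165 ± 9.24 to 117 ± 1.12 CPM (-0.49, SE 0.06, adjusted p = 0.00196). The related GGA3 was at -0.28 (adjusted p = 0.0393) and passed only without shNTC+Dox replicate 3 among the fits leaving out a library. Among 14 regulators of TFEB, 1 rose and 2 fell (7.14% and 14.3%). LAMTOR1, which anchors the Ragulator complex and with it mTORC1 to the lysosome, fell from 66.7 ± 4.12 to 39.4 ± 1.81 CPM (-0.76, SE 0.08, adjusted p = 5.43e-04), and its partner LAMTOR2 was at -0.38 (adjusted p = 0.0352) and, like GGA3, passed in no fit leaving out a library other than that without shNTC+Dox replicate 3. FLCN, a GTPase activator for the Rag proteins, was higher at 0.52 (SE 0.12, adjusted p = 0.0234), with no pass without shNTC+Dox replicate 2, shEHD1+Dox replicate 1 or shEHD1+Dox replicate 3 (adjusted p up to 0.0978).

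**Figure D4:**
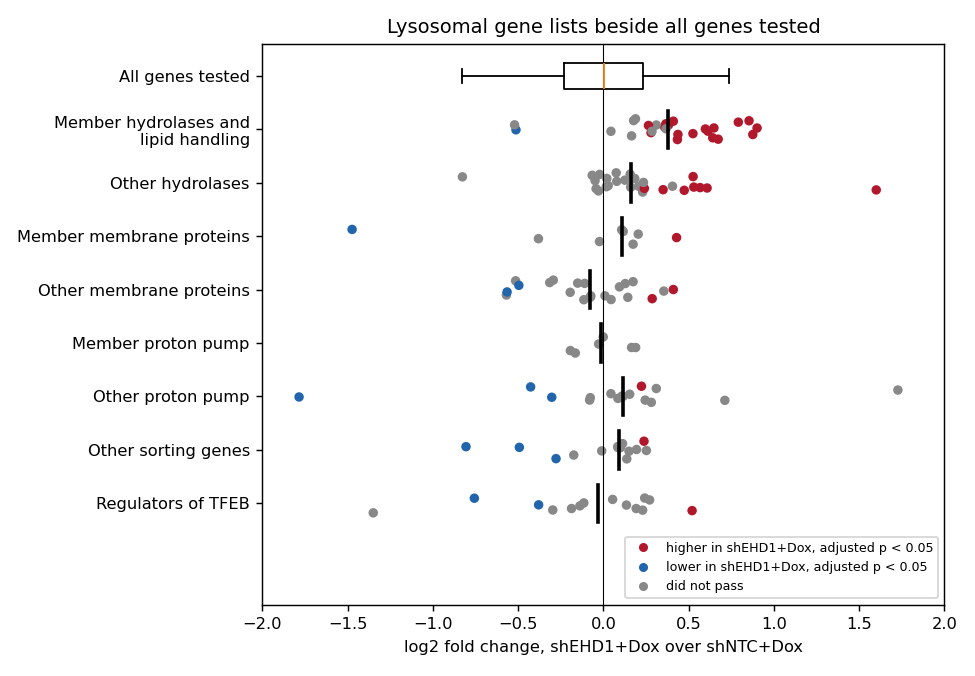
Log2 fold changes (horizontal axis, shEHD1+Dox over shNTC+Dox) of the lysosomal genes by list, 1 point per gene with the list median as a black bar, under a box for all 16785 genes tested (median, quartiles and 5th to 95th percentile). "Member" marks genes of the 47 and "other" the genes of the 97. The points of the 27 enzyme and lipid-handling genes gather around a median of 0.38, the other hydrolases around 0.16 and the proton pump subunits around -0.015 and 0.11.

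The 3′ UTRs of these genes were searched for AAGCTCT, a 7-base word known from an earlier look at these same libraries to be frequent in genes that fell, so the counts are no independent evidence. Among 12653 tested genes whose MANE Select transcript (GENCODE 44) had 50 or more bases of 3′ UTR, 14.1% carried it, 28.5% of the genes that fell and 9.53% of those that rose. Of 45 genes of the list with such a 3′ UTR, 3 carried it, namely OSTM1, which fell, CTSB, which rose, and TFE3, which did not pass. Over both sets of lysosomal genes, it was in 5 of 11 that fell (OSTM1, AP1G1, LAMTOR1, MFSD8 and ENTPD4), in 2 of 33 that rose and in 10 of 93 that did not pass. The sites of 4 of those that fell are shown in the sense of the mRNA with the word in capitals, at chr6:108044673-108044701 (OSTM1), chr16:71729188-71729216 (AP1G1), chr11:72097609-72097637 (LAMTOR1) and chr4:127920560-127920588 (MFSD8), all in GRCh38 on the minus strand.
OSTM1: tttgacaagtcAAGCTCTtaagaaataca
AP1G1: gacagctaatgAAGCTCTaattattgcag
LAMTOR1: actggcctttgAAGCTCTggccagggatg
MFSD8: ttcctggtctaAAGCTCTgctagacaatt
The bases around the word differ among the 4 sites. The OSTM1 site starts at base 98 of a 3′ UTR of 3379 bases, and those of LAMTOR1 and MFSD8 at bases 199 and 56. The AP1G1 site lies near the other end, at base 3856 of 4061. A match of letters is a description, and the part of the word in the falls was not tested. EHD1 itself has no such match in its 3′ UTR.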

How the data were processed

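RNA of 6 TC71 libraries (3 shNTC+Dox, 3 shEHD1+Dox, grouped by the sample labels) was sequenced as paired ends from TruSeq v2 libraries, which do not keep strand, so reads of overlapping genes cannot be told apart. Each gene's value in the table the authors deposited is a whole-number count. The study's methods name hisat2 and StringTie on hg38, whereas the submitters' processing notes name STAR 2.7.3a and DESeq2, and the step to counts is not given in the sources used here. All 6 count columns were used.

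Genes that reached 10 counts in 3 or more libraries (16785 of 60676) were kept, and their counts were scaled by TMM and tested with edgeR 4.0.16 in R 4.3.3 (glmQLFit with robust estimation, glmQLFTest, two-sided), with Benjamini-Hochberg adjustment over all of them. The SE given for an edgeR fit was derived from its test, as the absolute log2 fold change over the square root of the quasi-likelihood F. The study used DESeq2, here an alternative (1.42.0). The script was tested on simulated data. Fitted as 1 value for all genes, the spread between replicates beyond counting noise was 15% of a gene's level. Between replicates the chi-square per degree of freedom ran from 5.61 to 28.1, above that of counting noise alone. Between libraries of different groups it ran from 32.9 to 65.3, so the least alike replicates differed nearly as much as the most alike libraries of different groups. Each library was counted as its own replicate, though these values cannot tell separate cultures from separate preparations of one RNA.

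The 47 genes, the 97 further lysosomal genes and all rules were chosen with earlier results of these data known. Named with full values were members that passed, LAMP1, LAMP2, OSTM1, CLCN7, TFEB and TFE3, and up to 3 called genes with the largest change per further list; MCOLN1 was added after its values were seen. A gene that this rule names among the further hydrolases is not reported here. Exons, lengths and 3′ UTRs came from GENCODE 44 on GRCh38, in which 99.5% of gene identifiers were found. The length of a gene is that of the exons of all its transcripts joined. Summing the counts of genes that share exon bases was added after seeing the data. Counts without molecular identifiers are not independent molecules.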

Additional observations from a re-analysis of the deposited data

How the results depend on the processing

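The number of lysosomal genes called was 21 with DESeq2's size factors, 22 without a count filter, 22 with at least 10 counts in every library, 23 with DESeq2's Wald test and 21 with counts of genes on shared exons summed, against 22. It ran from 12 to 25 when a library was left out. Calls at 2-fold numbered 1 throughout, except for 3 (OSTM1, CTSH and MANBA) without shNTC+Dox replicate 2. Of the further lysosomal genes, 23 passed, 14 with the replicate block and 11 to 28 when a library was left out. EHD1 kept its direction and call, between -1.88 and -1.68.

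Both groups are numbered 1 to 3, but deviations of same-numbered libraries correlated at 0.072, -0.0593 and -0.0448, and 2 of 6 libraries correlated best with their own number, so the numbers were not taken as pairs. With the replicate block 17 of the 47 genes passed, and the calls of GAA, IDS, ARSA, LIPA and PPT1 were lost (adjusted p up to 0.0866). LIPA also missed with DESeq2's size factors (adjusted p = 0.0506), and NPC2 passed by DESeq2's Wald test (adjusted p = 0.0444).

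Signs turned only for values near 0 or on shared exons. MCOLN1 was 0.046 with shared counts summed, a sum made up mostly of counts of another gene, and ATP6V1B2 0.016 without a count filter. Over the fits that left out a library, CLCN7 ran from -0.131 to 0.113, ATP6V1B2 from -0.018 to 0.020 and ATP6V1E1 from -0.069 to 0.003. The cause was not tested. Depth limits CTSZ, CTSS, TFEB, IDUA and ATP6V1B1, with few counts per library.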
